A study of Mus musculus with 6 samples.

Results

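Hedgehog signalling between the bladder epithelium and the tissue around it was followed through 9 genes in embryonic mouse bladders with and without epithelial Klf5. The genes were the ligand gene Shh, the receptor genes Ptch1 and Smo, the transcription factor genes Gli1, Gli2 and Gli3, and the response genes Hhip, Bmp4 and Foxf1. They were chosen by name, as features of the deposited table that carry a single gene symbol, and all 9 were found among the 19938 genes tested. Foxf1 had 2 such features, of which the one with the higher mean over the 6 arrays was used, and each of the other 8 genes had 1.

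The RNA came from whole bladders of E14.5 embryos, each sample a pool of 2 bladders, with 3 samples per genotype and 1 Affymetrix Mouse Gene ST array per sample. In the Klf5-deleted group (Klf5 ∆/∆) the gene for Krüppel-like factor 5, a zinc-finger transcription factor of epithelia, was deleted on both alleles. The control group (Klf5+/+ShhGfpCre+) kept both Klf5 alleles and carried ShhGfpCre. This allele places a fusion of green fluorescent protein and Cre recombinase under the control of Shh, so that recombination is restricted to cells with Shh expression and their descendants. The widely used ShhGfpCre line is a knock-in that inactivates the Shh allele it sits in, so a carrier has 1 working copy of Shh. The labels name the allele for the controls and give only the Klf5 genotype for the deleted group. Cre in this series is driven from the Shh locus, so deletion of Klf5 by it requires the allele in that group too. The number of working Shh copies in each group was not tested. Whether the pools stem from different litters is not stated, so the p-values measure only the spread between these pools. The tissue label gives the age as E14 and the protocol as E14.5. The sample source is given as urothelium, but the protocol speaks of the whole organ. Markers of muscle and mesenchyme were abundant on all 6 arrays, so a transcript level here is that of a mixed tissue, in which fewer cells of a type and less RNA per cell cannot be told apart.

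Sonic hedgehog is a secreted protein made by the epithelium of the developing bladder, gut and lung. It binds Patched1 on neighbouring mesenchymal cells, which frees Smoothened to act and turns Gli factors from repressors into activators of transcription. Ptch1, Gli1 and Hhip are themselves switched on by the pathway and serve as its readout, and Bmp4 and Foxf1 are mesenchymal genes that depend on it in gut, lung and bladder.

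Windows of 250 bases ahead of the transcription start were available from RefSeq (GRCm38.p6) for 6 of the 9 genes. Shh, Gli1 and Foxf1 had none in the table used here. Those of 2 pathway targets (Ptch1 and Hhip), of Bmp4, and of Gli3, which is not a classical target, are given because the values that follow contrast these groups. Capitals mark the GC box GGGGCGGGG or the CACCC box CCACCC on either strand, which are letters that factors of the SP and KLF families recognise.
Ptch1 (chr13:63565736-63565985, minus strand): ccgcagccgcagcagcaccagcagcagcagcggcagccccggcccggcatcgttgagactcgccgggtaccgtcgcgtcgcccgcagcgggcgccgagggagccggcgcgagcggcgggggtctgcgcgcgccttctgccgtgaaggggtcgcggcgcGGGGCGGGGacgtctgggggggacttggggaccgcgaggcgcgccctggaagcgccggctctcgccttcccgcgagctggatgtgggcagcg
Hhip (chr8:80058009-80058258, minus strand): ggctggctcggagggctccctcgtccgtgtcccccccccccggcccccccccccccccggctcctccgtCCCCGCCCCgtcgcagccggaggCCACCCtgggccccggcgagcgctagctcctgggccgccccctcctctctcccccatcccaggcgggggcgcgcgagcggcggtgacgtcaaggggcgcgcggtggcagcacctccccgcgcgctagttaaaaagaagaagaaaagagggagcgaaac
Bmp4 (chr14:46390670-46390919, minus strand): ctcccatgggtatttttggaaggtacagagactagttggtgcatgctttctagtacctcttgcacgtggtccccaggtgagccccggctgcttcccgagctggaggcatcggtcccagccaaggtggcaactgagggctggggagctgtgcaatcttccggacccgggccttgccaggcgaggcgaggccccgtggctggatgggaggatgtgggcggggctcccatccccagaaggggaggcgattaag
Gli3 (chr13:15463473-15463722, plus strand): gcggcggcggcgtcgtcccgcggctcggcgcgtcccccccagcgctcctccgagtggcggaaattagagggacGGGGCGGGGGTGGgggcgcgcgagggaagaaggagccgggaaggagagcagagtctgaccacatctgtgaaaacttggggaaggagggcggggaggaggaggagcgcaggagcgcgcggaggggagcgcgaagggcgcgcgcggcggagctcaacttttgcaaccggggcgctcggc
The Ptch1 window held 1 GC box, beginning at position -92 from the start site. The Hhip window held a GC box from position -181 and a CACCC box from position -158, and in the Gli3 window a GC box and a CACCC box overlapped. The Bmp4 window held neither. Of the windows not printed, that of Smo had 1 CACCC box and that of Gli2 had 2. A GC box occurred in 10.4% and a CACCC box in 28.1% of all 32851 windows of this length. The GLI consensus GACCACCCA, or its core CCACCCA, which contains the CACCC box, was in none of the 6 windows. The consensus occurred in 0.225% and the core in 8.11% of all windows. These matches describe letters only and were not tied to binding.

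The ligand and the classical readouts of the pathway read lower in the Klf5-deleted bladders, by 1.18- to 1.44-fold, but no difference passed the test over all genes. Values are log2 levels as deposited, made with RMA (robust multi-array averaging), and each difference is Klf5-deleted minus control. Of the 9 genes 0 passed an adjusted p of 0.05 by limma, where 395 of the 19938 genes, or 1.98%, did (1.59% lower and 0.386% higher). Dropping Klf5-deleted 1, 2 or 3 in turn left 141, 172 or 253 such genes, and dropping control 1 or 3 left 165 or 261; in each of these fits 0 of the 9 passed. At an unadjusted p under 0.05, 5 of the 9 were lower and 0 higher, beside 8.08% of all genes lower and 6.34% higher. The groups did not overlap for 4 of the 9, all lower (Shh, Ptch1, Gli1 and Hhip), beside 11.8% of all genes that were lower without overlap and 8.67% that were higher. The median difference of the 9 genes was -0.24 (-0.155 without Klf5-deleted 2), and that of all genes was -0.01.

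**Figure D1:**
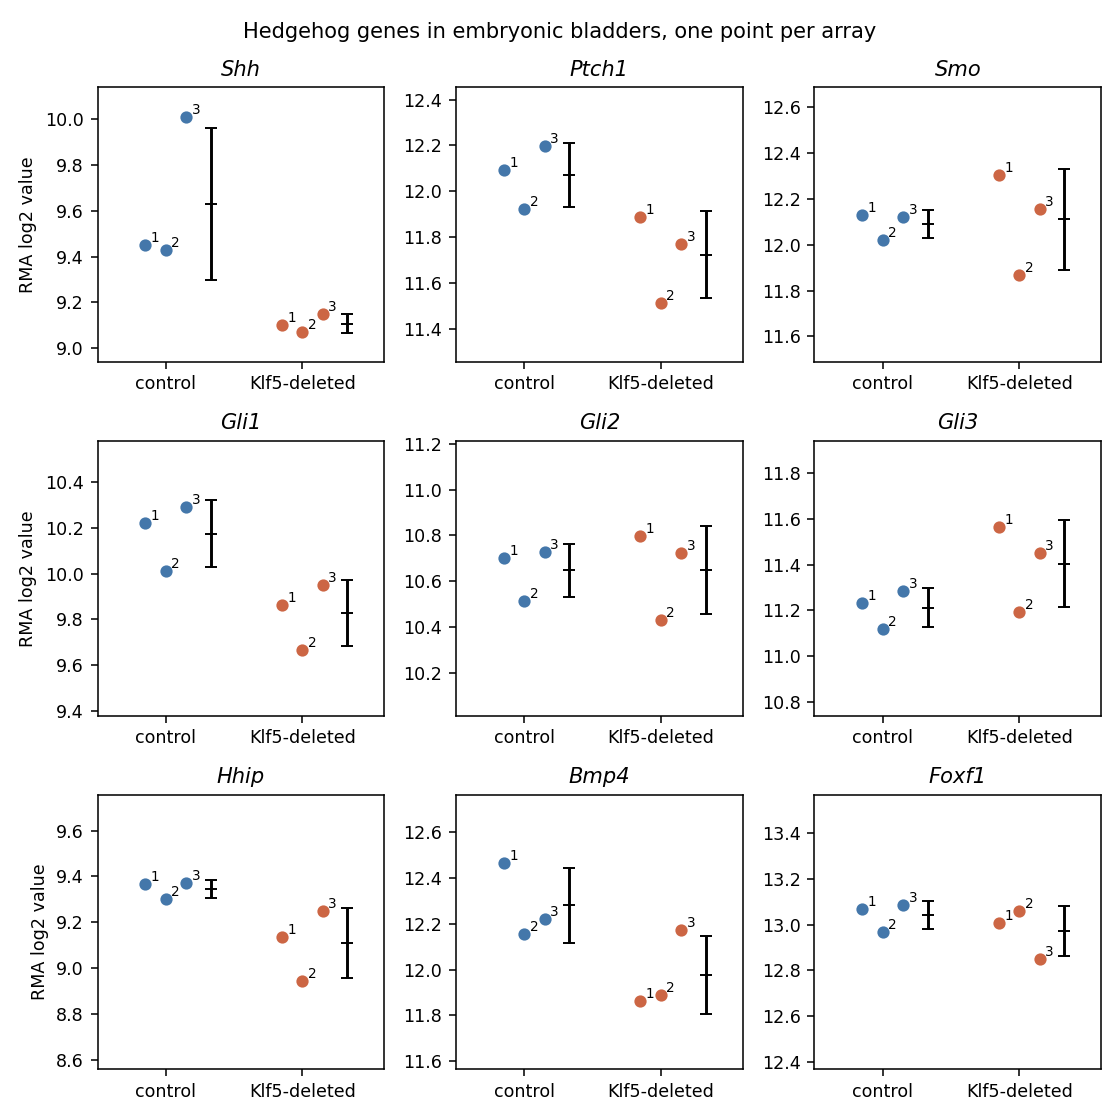
RMA log2 value of each hedgehog gene on the 6 arrays, controls in blue and Klf5-deleted in orange, with the replicate number beside each point and the mean ± SD as a black bar; every panel spans the same range of 1.2 log2 units. All Klf5-deleted points lie below all control points for Shh, Ptch1, Gli1 and Hhip, and the groups overlap for the other 5 genes.

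Shh, the ligand, showed the largest difference among the 9 genes. Its level was 9.10, 9.07 and 9.15 in the Klf5-deleted samples and 9.45, 9.43 and 10.01 in the controls. The Klf5-deleted samples lay within 0.08 of each other, whereas control 3 stood 0.56 above the next control. The group levels were 9.11 ± 0.04 (SD, n = 3) and 9.63 ± 0.33 (SD, n = 3). The difference was -0.52 (SE 0.15, 95% confidence interval -0.88 to -0.17), or 1.44-fold lower, and limma gave it an adjusted p of 0.168. It shrank to -0.33 when control 3 was left out, where limma's adjusted p was 0.111.

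Most markers of the epithelium that makes Shh were lower by more than Shh was, but not all of them. In a list of 20 genes of early urogenital epithelium, 12 fell, 0 rose and 8 did not pass, beside 1.59% of all genes that fell and 0.386% that rose. The list's median difference was -1.09, and 8 to 13 of its genes fell when 1 array was left out. Krt8, a keratin of simple epithelia, fell by 1.77, its partner Krt18 fell by 1.52, and Prom2, a membrane protein of epithelial protrusions, fell by 1.95. Foxa1, a transcription factor of endoderm-derived epithelia, differed by -0.89 (SE 0.19, limma adjusted p = 0.0721), or by -1.12 without control 2 (limma adjusted p = 0.0035). Of the 20 genes, 14 had a difference below that of Shh and 6 did not. Among these 6, singled out after their values were seen, Epcam, an epithelial adhesion protein, differed by -0.39 (SE 0.23, limma adjusted p = 0.521), or by -0.20 to -0.67 when 1 array was left out. Foxa2, a forkhead factor of endoderm, differed by 0.07 (SE 0.07, limma adjusted p = 0.712). The rest of the 6 were Krt5 at -0.10 (SE 0.33), Trp63 at -0.24 (SE 0.11), Cldn3 at -0.29 (SE 0.09) and Grhl2 at -0.44 (SE 0.12). Their adjusted p by limma was 0.15 to 0.94. The control values of Krt5 were far apart, at 9.85, 11.37 and 10.44. In a list of 10 genes of differentiated urothelium, 7 fell and 0 rose, with a median of -2.17. Upk2, a uroplakin of the urothelial surface, fell by 3.19. These lists were drawn up with earlier results of the same arrays known, so their counts are no independent evidence of direction. The mean log2 level of the early epithelial list was 9.01 to 9.29 in the Klf5-deleted samples and 10.06 to 10.35 in the controls.

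Shh was also expressed relative to the early epithelial list on the same array. The list was drawn up with its fall on these arrays known, which bears on the direction of such a difference, so the values are a description and no test is read from them. The log2 level of Shh minus the mean of the list was 0.09, -0.22 and -0.07 in the Klf5-deleted samples and -0.75, -0.63 and -0.34 in the controls. The Klf5-deleted values were the higher on this measure, without overlap, and the difference was 0.51. Against the differentiated urothelium list the difference was 1.28. Without control 3, in which Shh was highest, the difference from the early epithelial list was 0.63.

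Ptch1 and Smo code for the receptor pair; the groups did not overlap for Ptch1 and overlapped for Smo, neither passed, and the difference between the genes was not tested. The level of Ptch1, the receptor that is also a target, was 11.89, 11.51 and 11.77 in the Klf5-deleted samples and 12.09, 11.92 and 12.20 in the controls. The groups were separated narrowly, by 0.04 between Klf5-deleted 1 and control 2. The difference was -0.35 (SE 0.12, 95% confidence interval -0.62 to -0.08), or 1.27-fold lower, and limma gave it an adjusted p of 0.228. The level of Smo, the signal transducer, was 12.31, 11.87 and 12.15 in the Klf5-deleted samples and 12.13, 12.02 and 12.12 in the controls. The 3 control values lay inside the range of the Klf5-deleted ones. The difference was 0.02 (SE 0.11, 95% confidence interval -0.24 to 0.28), and limma gave it an adjusted p of 0.964.

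Among the Gli factors, the groups did not overlap for the target gene Gli1 and overlapped for the primary effectors Gli2 and Gli3. None of the 3 passed, and the difference between them was not tested. Gli1, an activator whose transcription depends on the pathway, was at 9.87, 9.67 and 9.95 in the Klf5-deleted samples and at 10.22, 10.01 and 10.29 in the controls. The highest Klf5-deleted value lay 0.06 below the lowest control. The difference was -0.35 (SE 0.10, 95% confidence interval -0.59 to -0.10), or 1.27-fold lower, and limma gave it an adjusted p of 0.18. Gli2, the main activator, was at 10.80, 10.43 and 10.72 in the Klf5-deleted samples and at 10.70, 10.51 and 10.73 in the controls. Its groups overlapped throughout, and the difference was 0.00 (SE 0.11, 95% confidence interval -0.26 to 0.26). Gli3, the main repressor, was at 11.56, 11.19 and 11.45 in the Klf5-deleted samples and at 11.23, 11.12 and 11.28 in the controls. Klf5-deleted 2 lay among the controls and the other two above them. The difference was 0.19 (SE 0.10, 95% confidence interval -0.05 to 0.44), and limma gave it an adjusted p of 0.472; it was 0.11 without Klf5-deleted 1 and 0.30 without Klf5-deleted 2.

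**Figure D2:**
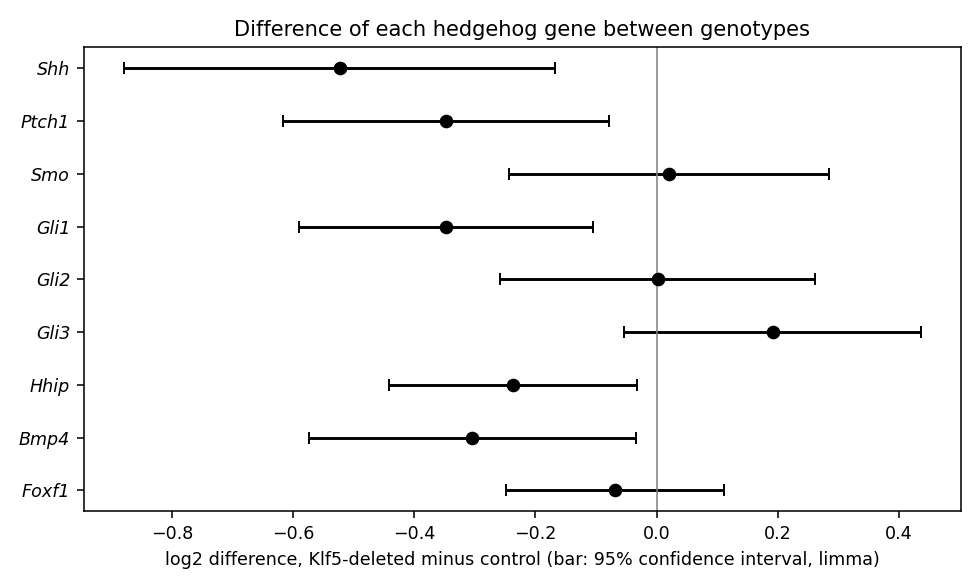
Log2 difference of each hedgehog gene, Klf5-deleted minus control, as points with 95% confidence intervals from limma as bars; the grey line marks no difference. The intervals of Shh, Ptch1, Gli1, Hhip and Bmp4 lie below 0 before adjustment over genes, and those of Smo, Gli2, Gli3 and Foxf1 include 0.

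Hhip, a surface protein that binds hedgehog ligands and limits their spread, was lower without overlap. Its level was 9.14, 8.94 and 9.25 in the Klf5-deleted samples and 9.37, 9.30 and 9.37 in the controls. The 3 controls lay within 0.07 of each other. The difference was -0.24 (SE 0.09, 95% confidence interval -0.44 to -0.03), or 1.18-fold lower, and limma gave it an adjusted p of 0.277. Without Klf5-deleted 2, the lowest sample, it was -0.15.

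Of the 2 mesenchymal response genes, Bmp4 read lower with a small overlap and Foxf1 was nearly level. Bmp4, a secreted growth factor of the bladder wall, was at 11.86, 11.89 and 12.17 in the Klf5-deleted samples and at 12.47, 12.15 and 12.22 in the controls. Klf5-deleted 3 lay 0.02 above control 2. The difference was -0.30 (SE 0.12, 95% confidence interval -0.57 to -0.03), and limma gave it an adjusted p of 0.29. Foxf1, a forkhead factor of visceral mesenchyme, was at 13.01, 13.06 and 12.85 in the Klf5-deleted samples and at 13.07, 12.97 and 13.08 in the controls. The difference was -0.07 (SE 0.08, 95% confidence interval -0.25 to 0.11), and at its second feature -0.19.

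Several of the 9 genes shared an order of arrays within a genotype. Control 2 was the lowest control for 9 of 9 genes, and Klf5-deleted 2 was the lowest of its group for 7 of 9. Bmp4 was instead lowest in Klf5-deleted 1, Foxf1 was highest in Klf5-deleted 2, and the Klf5-deleted values of Shh spanned only 0.08. Over all genes control 2 was the lowest control for 39.4%, Klf5-deleted 2 the lowest of its group for 39.6%, and both for 14.4%. Smo, Gli2 and Gli3 had the same order on the Klf5-deleted arrays, with array 1 the highest and array 2 the lowest. Their mean was 11.56, 11.16 and 11.44 in the Klf5-deleted samples and 11.35, 11.22 and 11.38 in the controls.

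Set against that mean on the same array, the readouts separated more widely. This reference was chosen after the values were seen, so it is a description with no test. Ptch1 minus the mean of Smo, Gli2 and Gli3 was 0.33, 0.35 and 0.33 in the Klf5-deleted samples and 0.74, 0.71 and 0.82 in the controls. The gap between the groups grew from 0.04 to 0.36, as the Klf5-deleted samples came to lie within a few hundredths of each other. The difference of Ptch1 also went from -0.35 to -0.42, because the reference genes themselves differed by 0.02 (Smo), 0.00 (Gli2) and 0.19 (Gli3). Gli1 minus the same mean was -1.69, -1.50 and -1.49 in the Klf5-deleted samples and -1.13, -1.20 and -1.08 in the controls. The gap for Gli1 grew from 0.06 to 0.29 and that for Hhip from 0.05 to 0.19, whereas that for Shh narrowed from 0.28 to 0.19. Of the reference genes themselves, Gli3 was higher by 0.12 without overlap, Gli2 differed by -0.07 with a gap of 0.02 between the groups, and Smo overlapped. The reference genes make up this mean, so their differences from it offset each other by construction. Bmp4, which had overlapped, was separated by 0.11, and Foxf1 still overlapped. Over all genes 7.92% were lower and 1.67% higher without overlap on this scale. A ratio within an array shows unequal change and not which of the genes changed.

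**Figure D3:**
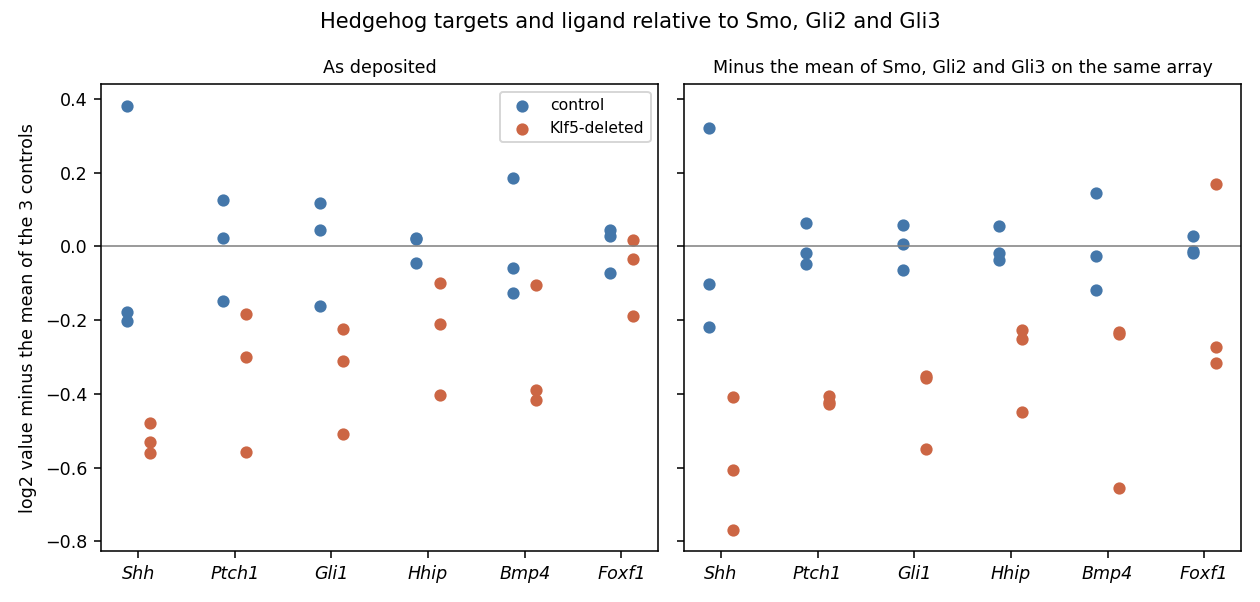
Log2 values of the ligand, the readouts and the response genes on each array, shown as the difference from the mean of the 3 controls, with controls in blue and Klf5-deleted in orange. In the left panel values are as deposited and in the right panel the mean of Smo, Gli2 and Gli3 on the same array was subtracted first; on the right the 3 Klf5-deleted points of Ptch1 nearly coincide and Bmp4 no longer overlaps.

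Among 13 other measured genes of hedgehog ligands, release and reception, 1 rose and 0 fell, beside 0.386% and 1.59% of all genes. Scube3, a secreted protein of the family that helps release hedgehog ligand, was at 9.73, 9.45 and 9.73 in the Klf5-deleted samples and at 9.10, 9.02 and 9.09 in the controls. Every Klf5-deleted sample was above every control, and the gene rose by 0.57 (SE 0.09, limma adjusted p = 0.026). The call held when Klf5-deleted 2 was left out (limma adjusted p = 0.0191) and was lost when any of the other 5 arrays was, at an adjusted p of 0.0618 to 0.1161. Its relative Scube2 differed by -0.29 (SE 0.09, limma adjusted p = 0.2). Ihh, the gene of another hedgehog ligand made by endodermal epithelia, was at 8.29, 8.06 and 8.18 in the Klf5-deleted samples and at 8.40, 8.53 and 8.55 in the controls. Its groups did not overlap, and the difference was -0.32 (SE 0.08, limma adjusted p = 0.123). Disp1, which releases the lipid-bearing ligand from the cell that makes it, differed by 0.28 (SE 0.08, limma adjusted p = 0.154). The list's median was 0.13. Of the 13 genes 6 had an unadjusted p under 0.05 by limma, beside 8.08% of all genes lower and 6.34% higher. Without overlap, 2 were lower and 4 higher, beside 11.8% and 8.67% of all genes.

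Genes of signal transduction and of the primary cilium, the organelle where Smoothened acts, held no call. Of 16 measured genes 0 fell and 0 rose by limma, beside 1.59% and 0.386% of all genes. In this list 1 gene had an unadjusted p under 0.05, and the median was 0.10. Without overlap, 0 were lower and 4 higher, beside 11.8% and 8.67% of all genes. The mean level of the list was 9.85 to 9.93 in the Klf5-deleted samples and 9.72 to 9.84 in the controls. Ift88, a transport protein of the cilium, differed by 0.20 (SE 0.07, limma adjusted p = 0.273).

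Other mesenchymal targets and partners of the pathway went both ways. Of 22 genes 1 fell and 0 rose, with 10 lower, 12 higher and a median of 0.05. By limma 10 had an unadjusted p under 0.05, beside 8.08% of all genes lower and 6.34% higher. The groups did not overlap for 3 lower and 7 higher genes, beside 11.8% and 8.67% of all genes. The gene that fell was Hsd17b2, which codes for a steroid dehydrogenase and is not a marker of mesenchyme; it was at 7.42, 7.08 and 7.13 in the Klf5-deleted samples and at 9.17, 8.81 and 8.66 in the controls, and it fell by 1.67 (SE 0.15, limma adjusted p = 0.0026). Wnt4, a signalling gene, differed by -0.69 (SE 0.19, limma adjusted p = 0.142). Tbx18, a T-box factor of urogenital mesenchyme, was at 10.31, 10.04 and 10.22 in the Klf5-deleted samples and at 9.77, 9.33 and 9.22 in the controls. Its groups did not overlap and its difference was 0.75 (SE 0.15, limma adjusted p = 0.0568), just outside the threshold; 7 of 16 other settings placed it inside, at an adjusted p of 0.0181 (without control 1) to 0.049. Wnt5a, a Wnt ligand of mesenchyme, differed by 0.60 (SE 0.16, limma adjusted p = 0.133).

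The forkhead factors in the list of mesenchymal targets and partners, singled out after their values were seen, went both ways. Foxf2, which shares the visceral mesenchyme with Foxf1, was at 9.31, 9.23 and 9.30 in the Klf5-deleted samples and at 10.02, 9.44 and 9.92 in the controls. The groups did not overlap, with control 2 the lowest control, and the difference was -0.51 (SE 0.14, limma adjusted p = 0.153). Without control 2 it was -0.69, with an adjusted p of 0.0066. Foxl1, a hedgehog target of gut mesenchyme, differed by -0.32 (SE 0.11, limma adjusted p = 0.24), and its groups overlapped. Foxc1 and Foxc2, factors of mesenchyme and developing vessels, read higher without overlap. Foxc2 was at 9.08, 9.43 and 9.26 in the Klf5-deleted samples and at 8.67, 8.86 and 8.64 in the controls. Its difference was 0.53 (SE 0.11, limma adjusted p = 0.0599), and 3 of 16 other settings placed it inside the threshold, at an adjusted p of 0.0399 to 0.0477. Foxc1 differed by 0.42 (SE 0.11, limma adjusted p = 0.127).

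In the BMP pathway around Bmp4, 1 of 23 measured genes fell and 0 rose, beside 1.59% and 0.386% of all genes. The list's median was 0.025. Without overlap, 2 were lower and 1 higher, beside 11.8% and 8.67% of all genes. Msx2, a homeobox gene that BMP signals induce in several tissues, was at 7.44, 7.66 and 7.53 in the Klf5-deleted samples and at 8.87, 8.60 and 8.68 in the controls. It fell by 1.17 (SE 0.09, limma adjusted p = 0.002). Id1, a general BMP responder, was at 10.01, 10.10 and 10.08 in the Klf5-deleted samples and at 10.34, 10.29 and 10.44 in the controls. Its groups did not overlap and the difference was -0.30 (SE 0.07, limma adjusted p = 0.0925). Bmp7, a BMP ligand, differed by 0.42 (SE 0.10, limma adjusted p = 0.113).

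**Figure D4:**
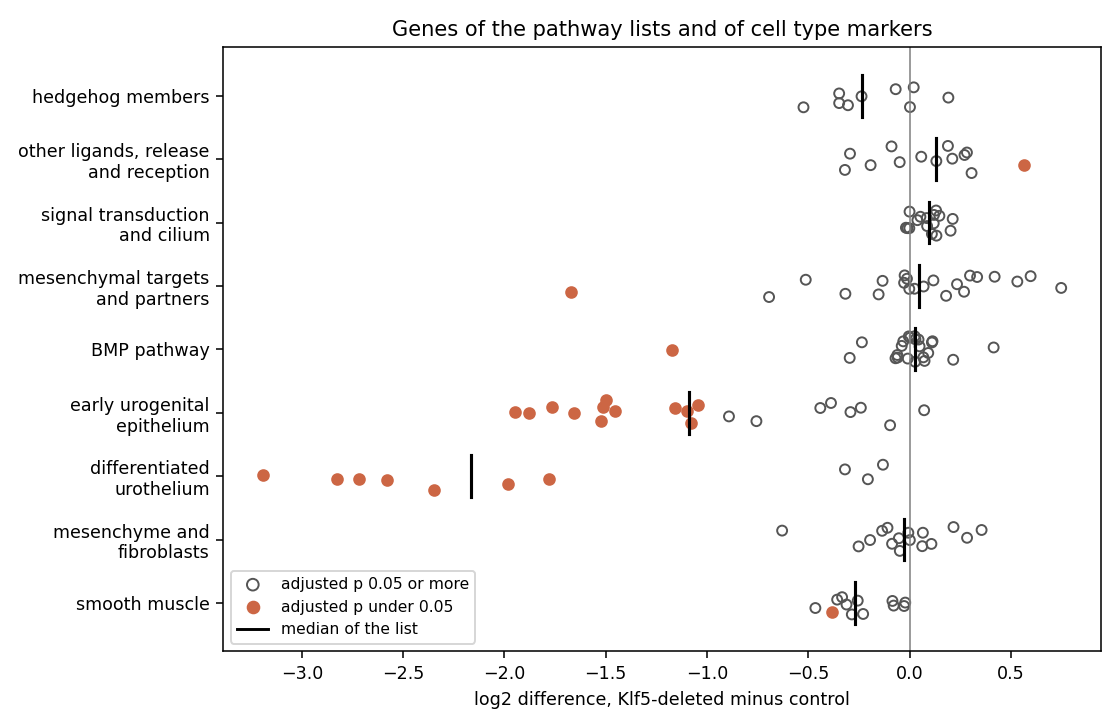
Log2 difference of each measured gene, Klf5-deleted minus control, by list; filled orange points passed an adjusted p of 0.05 by limma, open points did not, and black bars are list medians. The 9 hedgehog genes have a median of -0.24 and no call, and the 4 other pathway lists have medians of 0.025 to 0.13 with 3 calls. The smooth muscle list has a median of -0.27 with 1 call, and the mesenchymal list one of -0.03 with no call. The epithelial lists lie to the left, at medians of -1.09 and -2.17.

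Some marker lists of other tissues also read lower or higher in the Klf5-deleted samples, and their part in these results was not tested. Past the threshold, 1.59% of all genes were lower and 0.386% higher. For the mesenchymal list, 0 of 16 genes passed, the median was -0.03 and the mean level was 11.83 to 11.89 in Klf5-deleted and 11.84 to 11.94 in control samples. All 12 smooth muscle genes read lower, 1 of them past the threshold (0 when any single array was left out). Their median was -0.27 (-0.172 without control 1), beside -0.24 for the 9 hedgehog genes. The groups of 7 of the 12 did not overlap, beside 4 of the 9 and 11.8% of all genes lower without overlap. The mean level of the list was 11.70 to 11.90 in Klf5-deleted and 11.91 to 12.18 in control samples. All 8 skeletal muscle genes read higher, 0 past the threshold, with a median of 0.634 (0.421 without Klf5-deleted 3) and a mean level of 9.43 to 10.36 in Klf5-deleted and 8.93 to 9.75 in control samples. Of 9 endothelial genes 8 read lower, 4 of them without overlap and 0 past the threshold. The median was -0.136 (-0.207 without Klf5-deleted 2), and the mean level was 10.45 to 10.78 in Klf5-deleted and 10.66 to 10.78 in control samples. Of 5 mesothelial genes 2 fell and 1 rose; Krt19, 1 of the 2, and Upk3b are also in the epithelial lists. Their mean level was 9.64 to 9.74 in Klf5-deleted and 10.02 to 10.28 in control samples. Msln, a surface protein of mesothelium, fell by 1.42, while Wt1, a zinc-finger factor of mesothelium and urogenital mesenchyme, rose by 0.54, a call kept without control 2 and lost without any other single array. The lists of leukocytes (8 measured genes), neurons and glia (7), erythroid cells (4) and gut and nephric duct epithelium (10) held 0 calls, at medians of -0.173, 0.034, 0.325 and 0.017. Each of these medians changed sign when 1 array was left out. The leukocyte median was 0.026 without control 2, and that of neurons and glia was -0.158 without control 3. Without control 1 the erythroid median and the gut and nephric duct median were each -0.095. Control 2 carried the most placental transcripts, with 3 markers at a mean of 10.83 against 5.79 to 7.56 on the other arrays. Of these, Tpbpa was at 13.13 in control 2, 10.34 in Klf5-deleted 2 and 6.18 to 8.35 on the other arrays. Psg17 and Ceacam11 were at 9.40 and 9.96 in control 2 and at most 5.73 and 6.61 elsewhere, both in Klf5-deleted 2. Leaving out control 2 made the groups of 6 of the 9 hedgehog genes lower without overlap, beside 16.6% of all genes, and 0 of the 9 passed. As the check of the labels, Klf5 fell by 0.59 (SE 0.10, limma adjusted p = 0.0381); 8 of 16 other settings lost the call, at an adjusted p of 0.061 to 0.1562. Within a genotype, arrays correlated at 0.987 to 0.996 across genes.

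Genes whose profile over the 6 arrays was most like that of a hedgehog gene were found by the root mean square difference of log2 values, after each gene was centred on its own mean. This measure includes the difference between genotypes and rests on 6 arrays, so it describes these samples only. For Shh the nearest were Clic6, Macc1 and Cyp4f39, at 0.10 each, and the last 2 of these fell, Macc1 by 0.64 and Cyp4f39 by 0.68, with an adjusted p of 0.0457 and 0.0381 by limma. Each of the 3 was highest in control 3, as Shh was. For Ptch1 they were Ano1, a calcium-activated chloride channel, Cd14 and Elf4, at 0.05 to 0.06. For Gli1 they were Entpd5, Atp10a and Cnnm4, at 0.05 to 0.06. For Hhip they were Dag1, which codes for dystroglycan, Lnx2 and Gjb5, at 0.02 to 0.03, and for Bmp4 they were Zmat5, Fam167b and Sowahb, at 0.04 each. None of the 12 genes named for Ptch1, Gli1, Hhip and Bmp4 passed the test by limma, their lowest adjusted p being 0.0761.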

How the data were processed

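The table the authors deposited holds a log2 value for every feature on each array, summarised with RMA per the submitters' processing notes. Version, genome build and probe annotation: not given in the sources used here. Values between 3.24 and 14.65, alike in distribution over arrays, point to a log2 scale. Without scanner values no feature could be called above background, and the number of arrays limits the precision. Of 35557 features, 21789 carried a single gene symbol in GEO's platform annotation, 1621 several and 12147 none. The feature with the highest mean stood for each of 19938 genes, of which 19856 matched RefSeq (GRCm38.p6) by Entrez identifier with no change of symbol.

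Genotypes were compared by limma's lmFit and eBayes (limma 3.58.1, R 4.3.3, two-sided), with Benjamini-Hochberg adjustment over all 19938 genes at 0.05. Lists are described by counts and medians. The hedgehog genes and all gene lists were chosen with earlier results of these data known. The rule for other named genes took, from each pathway and epithelial list, genes past the threshold and the 3 largest differences that were not. It also took the 3 genes nearest to 5 of the hedgehog genes. Some were left out for space. Foxf2, Foxl1, Foxc1, Foxc2, Disp1, Epcam, Foxa2, Krt5, Trp63, Cldn3, Msln and Wt1 were added after their values were seen. Other marker lists are given as lists. In 20 simulated data sets of 19938 genes with 200 of them changed, the same fit recovered 89.1% of those changed 2-fold and 49.3% of those changed 1.41-fold. Of its calls, 5.08% were unchanged genes. The spread of each simulated gene was taken from these arrays. Changes below 1.41-fold, such as the differences of Ptch1, Gli1, Hhip and Bmp4, were not simulated. Motifs were searched as exact letters.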

Additional observations from a re-analysis of the deposited data

How the results depend on the processing

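Each of the 9 hedgehog genes was refitted under 16 other settings, and 0 of the 9 passed the threshold in any of them by limma. Shh, Ptch1, Gli1, Hhip and Bmp4 kept their negative sign in all 16, with an adjusted p of 0.1114 to 0.3839 for Shh and 0.1149 to 0.385 for Gli1. Gli3 and Foxf1 also kept their signs, while Smo and Gli2, whose differences were near 0, changed sign when 1 array was left out. Smo was -0.0778 without Klf5-deleted 1, -0.0016 without Klf5-deleted 3 and -0.0152 without control 2, within a range of -0.0778 to 0.1407. Gli2 was -0.0713, -0.0343 and -0.065 in the same fits, within a range of -0.0713 to 0.1118.

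Over all genes the count past the threshold was 395, and 141 to 349 when 1 array was left out. It was 180 of the 19938 genes when all 35557 features were adjusted over together. The falls were 318 of 395 genes (80.5%), and 273 of 389 (70.2%) with arrays centred on their median. The calls in the 4 other pathway lists numbered 3, and 5 with arrays centred on their median, on housekeeping genes or with a trended robust fit; Foxc2 and Tbx18 were the additions. The count was 2 to 3 when 1 array was left out. Msx2 and Hsd17b2 passed in all 16 settings. Centring on mesenchyme genes and the counts without control 2 were chosen after seeing the data.

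With the replicate number of the titles as a block, 110 genes passed, 0 of the 9 hedgehog genes among them, Wnt4 passed with an adjusted p of 0.0365, and Scube3 did not pass, at an adjusted p of 0.068. Same-numbered samples deviated together at correlations of 0.009, 0.031 and 0.079 across genes. Klf5-deleted 1 correlated best with control 2, at 0.011, and Klf5-deleted 2 and 3 each with the control of their own number. Whether a shared number marks a shared litter or day was not tested and cannot be told from these values. The difference of Shh relative to epithelium was 0.42 to 0.63 when 1 array was left out. Other background corrections were not run, since no scanner values were used here.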
